A study of Mus musculus with 6 samples.

Results

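The cytosolic ribosomal protein genes were examined in whole brain of mice that carried an editing-dead ADAR1 and in their controls. They were taken as the genes whose full symbol was Rpl, Rplp or Rps followed by a number and at most 1 further letter, among the 13891 genes with a deposited normalized value. This gave 75 genes, 44 of the large subunit and 31 of the small subunit, out of 37310 genes in the count table. All 75 were among the 13649 genes tested for a difference between genotypes. The choice of genes used no measured difference between genotypes.

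Total RNA came from whole brain of 12-week-old male C57BL/6 mice, with 3 independent biological replicates for each of 2 genotypes. The *Adar1* E861A/E861A Ifih1-/- mice were homozygous for a point mutation that abolishes adenosine-to-inosine editing by ADAR1 and leaves the protein in place. The *Adar1*+/+ Ifih1-/- mice were wild type for *Adar1*. Both genotypes lacked *Ifih1*, which encodes MDA5, the cytosolic sensor of double-stranded RNA, so neither genotype had this sensor. The libraries are called E861A and wild type below. Ribosomal RNA was depleted before a stranded library preparation, so the ribosomal protein transcripts were read among all other RNAs of the tissue.

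Ribosomes translate mRNA into protein. A small subunit holds the mRNA and decodes it, and a large subunit joins the amino acids. Each subunit is built from ribosomal RNA and one copy of most of its proteins, so the cell makes these proteins in matched amounts. Their mRNAs are abundant in every tissue and share a run of pyrimidines (C and T in DNA) at the transcription start, the TOP motif, through which mTOR signalling and the protein LARP1 control their translation. Brain cells express them in cell bodies, and their mRNAs are also found in neuronal processes.

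The 6 libraries held 26853488 to 38076753 counts, and each ribosomal protein gene held 164 to 8807 counts per library. The 75 genes took 0.544% to 0.569% of all counts in a library. The point mutation does not remove *Adar* reads, and *Adar* averaged 162 ± 7.42 CPM in E861A and 152 ± 31.8 CPM in wild-type libraries (SD, n = 3). *Ifih1*, which both genotypes lack, stood at 1.54 ± 0.0883 and 1.20 ± 0.104 CPM (SD, n = 3). All 3 E861A libraries lay above all 3 wild-type libraries for *Ifih1*, which was below the level needed for the test. CPM are counts scaled to a common library size, with TMM factors.

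The levels of the ribosomal protein genes spanned a 39.1-fold range when set per kilobase of annotated exon, with a median of 43.3 CPM per kilobase over both genotypes. *Rps27*, of the small subunit, was highest at 283 CPM per kilobase, followed by *Rplp1*, a protein of the large-subunit stalk, at 270. *Rpl17* stood at 176 CPM per kilobase, and *Rps15* and *Rpl4* both at 159. The order of the last 2 does not hold beyond their spread. The lowest levels were those of *Rps4l* at 7.24, *Rps27l* at 8.25 and *Rpl18* at 8.70 CPM per kilobase. *Rps4l* and *Rps27l* are paralogues of *Rps4x* and *Rps27*, and *Rps4x* stood at 61.8 CPM per kilobase. These levels depend on the annotated exon length, which was 345 bases for *Rps27* and 4042 bases for *Rpl18*.

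**Figure D1:**
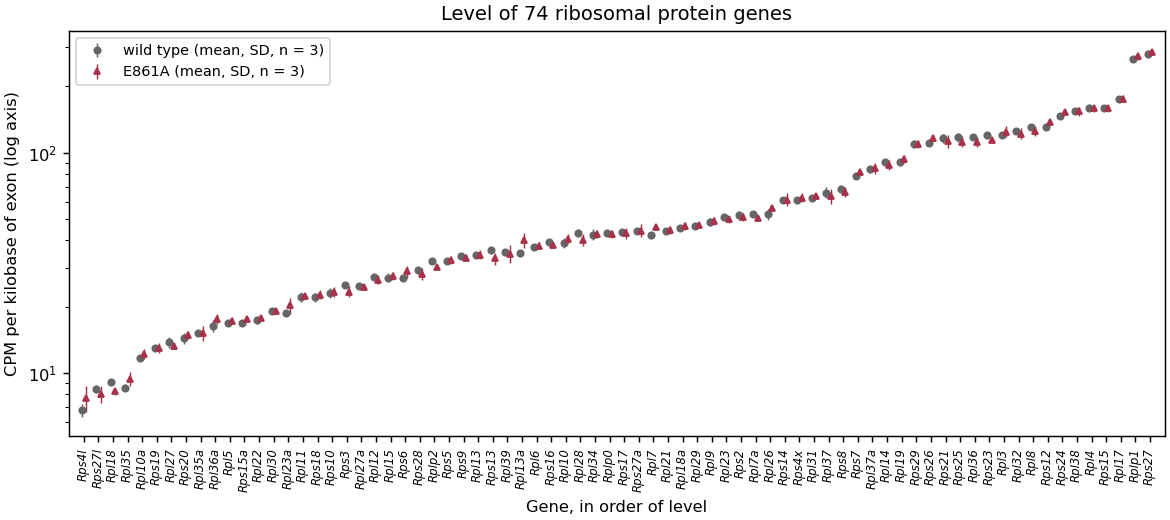
Level of 74 of the ribosomal protein genes in CPM per kilobase of annotated exon (log axis), ordered from lowest to highest, with circles for the wild-type mean, triangles for the E861A mean and bars for the SD of 3 libraries. The order runs from *Rps4l* (7.24) to *Rps27* (283), and the 2 genotypes lie close together at each gene beside this range.

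In the unpaired fit no ribosomal protein gene passed the test between genotypes, and in the fit blocked by replicate 1 did, *Rpl13a*. The block pairs libraries by replicate number, and no label states such a pairing. The unpaired edgeR quasi-likelihood test called 0 of the 75 genes at an adjusted p under 0.05, where it called 0.506% of all tested genes (69 of 13649), 0.41% as higher and 0.0952% as lower in E861A. That share of 75 genes is less than 1 gene. At an unadjusted p under 0.05 it gave 3 ribosomal protein genes, namely *Rpl13a* and *Rpl7*, higher in E861A, and *Rpl18*, lower in E861A, where 9.01% of all tested genes passed, 4.78% higher and 4.23% lower. DESeq2 and limma-voom also called 0 of the 75. The blocked fit called 1.16% of all tested genes, and 1 of 75 is close to that share. The fits with GC offsets and without a level filter, which called 0.491% and 1.28% of their genes, also called that 1 gene. The genotypes did not overlap at 11 of the 75 genes (14.7%), 7 higher and 4 lower in E861A. Over all tested genes the share that did not overlap was 14.2%, with 7.51% higher and 6.66% lower.

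The fitted changes were small in both directions. In E861A 41 of the 75 genes had a positive and 34 a negative log2 fold change, and their median was 0.0072, with a range from -0.14 to 0.20. Over all tested genes the median was -0.0010 and 49.5% were positive and 50.5% negative. The large subunit had a median log2 fold change of 0.0080, with 25 genes higher and 19 lower, and the small subunit one of 0.0054, with 16 higher and 15 lower. The split by sign turned with single libraries. It was 30 higher and 45 lower without E861A replicate 2, and 29 higher and 46 lower without wild-type replicate 3. Without wild-type replicate 2 it was 52 higher and 23 lower.

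The intervals, which hold counting error and the spread between libraries, bounded the changes. The 95% interval of the log2 fold change had a median half-width of 0.11. It lay wholly between -0.2 and 0.2 for 62 of the 75 genes and wholly between -0.5 and 0.5 for all 75. A log2 value of 0.2 is a fold of 1.15, and one of 0.5 a fold of 1.41. The spread between libraries of a genotype, on the log2 scale, had a median SD of 0.059 over the ribosomal protein genes and of 0.081 over all tested genes.

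**Figure D2:**
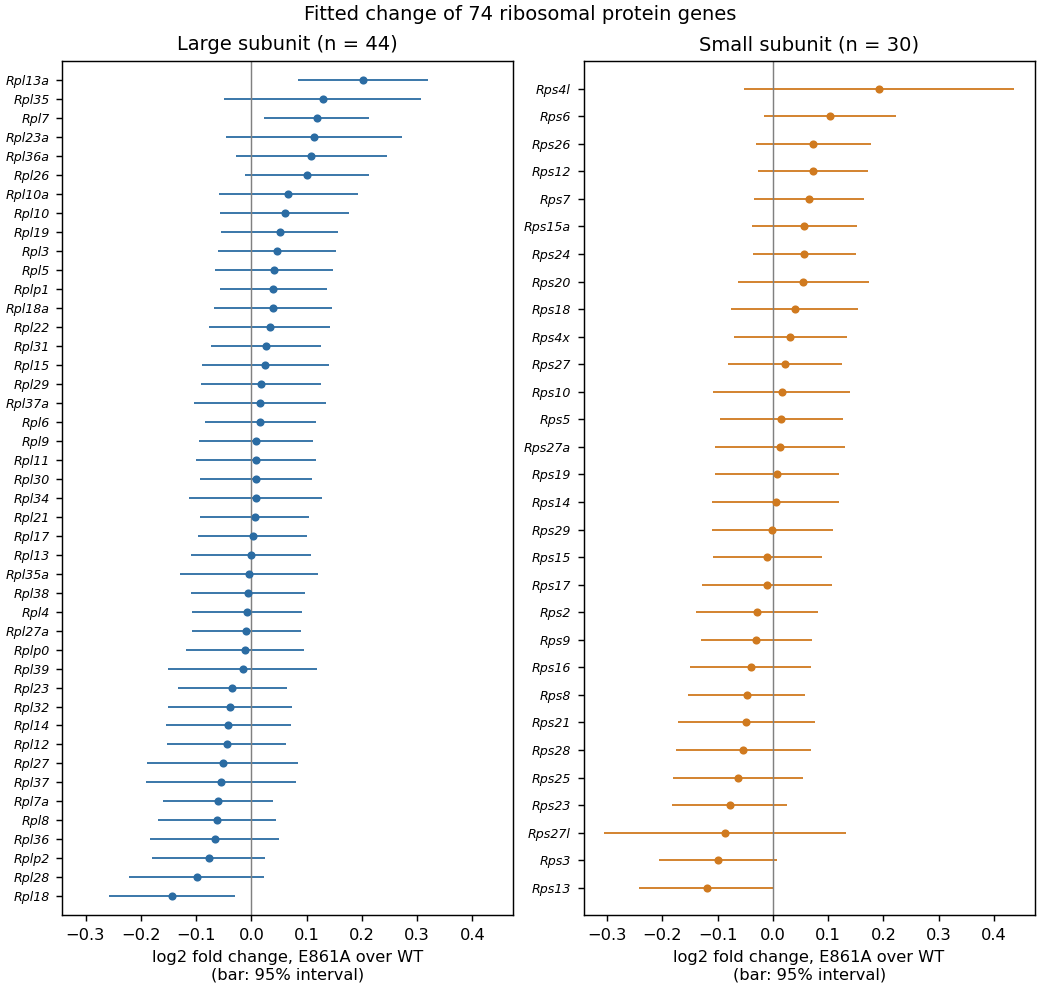
Fitted log2 fold change of E861A over wild type for the 44 genes of the large subunit (left) and 30 of the small subunit (right), with bars for the 95% interval. The points run from -0.14 (*Rpl18*) to 0.20 (*Rpl13a*), and the intervals of *Rpl13a*, *Rpl7* and *Rpl18* are those that leave out 0.

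The summed levels of the 75 genes in the genotypes differed by less than their spread. In order of replicate, it was 5518, 5784 and 5522 CPM for E861A against 5525, 5737 and 5476 CPM for wild type. The groups overlapped, with means of 5608 ± 152 and 5579 ± 139 CPM (SD, n = 3). In both genotypes replicate 2 was the highest library. One of the pair of replicate 2 libraries was the highest of the 6 for 57 of the 75 genes, 33 times in E861A and 24 times in wild type, and one of them was the lowest for 2 genes. These counts were not made over all tested genes, so they do not set the ribosomal protein genes apart. The genes of the respiratory chain, which are also short and abundant, summed to 5137, 5561 and 5281 CPM in E861A and 5464, 5715 and 5409 CPM in wild type, again with replicate 2 highest in each genotype.

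**Figure D3:**
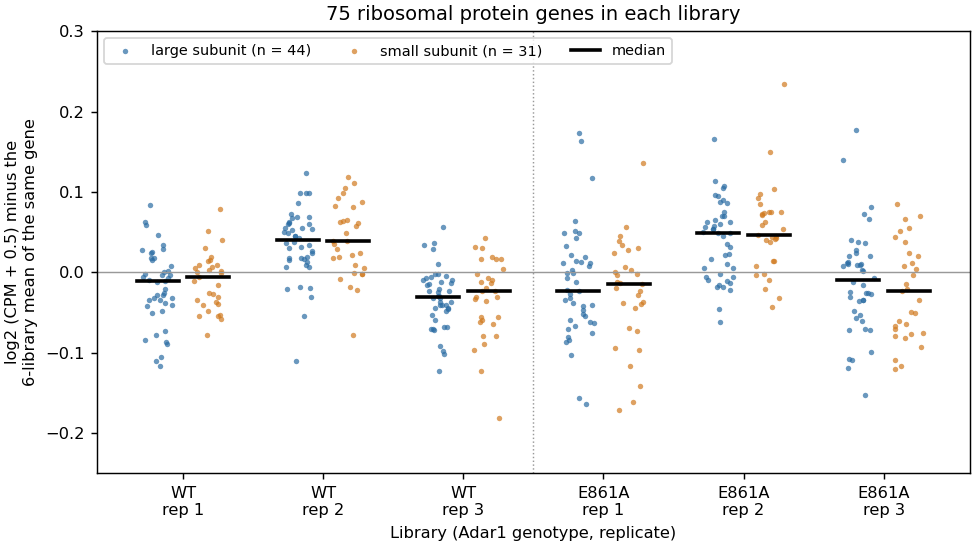
Each point is 1 ribosomal protein gene in 1 library, as log2 (CPM + 0.5) minus the mean of that gene over the 6 libraries, in blue for the large and orange for the small subunit, and the bars are medians. The medians over all 75 genes lie at -0.011, 0.039 and -0.029 for the wild-type libraries and at -0.019, 0.049 and -0.015 for the E861A libraries, in order of replicate, so replicate 2 is raised in both genotypes and the genotypes overlap.

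The ratio of the summed large-subunit level to the summed small-subunit level did not overlap between genotypes, by a small margin. The E861A libraries gave 1.549, 1.539 and 1.544, and the wild-type libraries 1.530, 1.529 and 1.532. With *Rpl13a* left out, which was done after its value was seen, the ratio was 1.485, 1.478 and 1.488 in E861A and 1.476, 1.478 and 1.479 in wild type. The groups then overlapped, and each E861A library was above the wild-type library of the same number. With *Rpl7* left out too, again after its value was seen, it was 1.428, 1.422 and 1.432 in E861A and 1.425, 1.426 and 1.426 in wild type. E861A replicate 2 then lay below wild-type replicate 2. Both genes are of the large subunit and higher in E861A, so leaving them out must lower the E861A ratio relative to wild type. The overlap is therefore no test of the ratio. *Rpl18*, of the large subunit and lower in E861A, was kept.

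*Rpl13a* had the smallest p-value and the largest log2 fold change of the 75. It encodes a protein of the large subunit that, in myeloid cells treated with interferon-gamma, is released from the ribosome and represses the translation of inflammatory mRNAs. It lies on the minus strand of chromosome 7 (chr7:52380928-52391787, mm9). Its level, in order of replicate, was 139.1, 139.4 and 121.2 CPM for E861A against 117.1, 115.0 and 115.7 CPM for wild type. All 3 E861A libraries were above all 3 wild-type libraries, and E861A replicate 3 was the nearest to them. The log2 fold change was 0.20 ± 0.055 (SE), with a 95% interval from 0.084 to 0.32, or a fold of 1.06 to 1.25. The adjusted p-value over all tested genes was 0.227.

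The call on *Rpl13a* depended on the model. In the fit blocked by replicate number the log2 fold change was 0.20 and the adjusted p-value 0.0489. With an offset for GC content the log2 fold change was 0.24 and the adjusted p-value 0.0482, and with both the adjusted p-value was 0.0231, in a fit that called 0.703% of all tested genes. Without a level filter the adjusted p-value was 0.0457. Without E861A replicate 3 the log2 fold change was 0.26 and the adjusted p-value 0.0326, with 0.307% called, and without E861A replicate 1 they were 0.17 and 0.537. Over 19 alternatives the adjusted p-value ran from 0.0231 to 0.537 and the log2 fold change from 0.17 to 0.26, always higher in E861A.

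Counts of annotated genes that share the span of *Rpl13a* were read beside its own, with genes chosen after its value was seen. These are unscaled counts assigned to each gene, so they do not show which reads entered the *Rpl13a* count. *Flt3l*, which encodes a cytokine ligand and shares part of the *Rpl13a* span on the same strand, held 28, 32 and 33 counts in E861A and 37, 33 and 44 in wild type. *Rpl13a* itself held 4073, 4973 and 3204 counts in E861A and 4268, 4292 and 4120 in wild type, before scaling to library size. The introns of *Rpl13a* hold 4 small nucleolar RNAs, which guide the methylation of ribosomal RNA. Of these *Snord35a* held 14, 17 and 9 counts in E861A and 9, 12 and 8 in wild type, and *Snord32a*, *Snord33* and *Snord34* held 0 in each library.

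*Rpl7* and *Rpl18*, both of the large subunit, were the other 2 genes at an unadjusted p under 0.05. *Rpl7*, which encodes an RNA-binding protein, stood at 122.4, 127.0 and 122.0 CPM in E861A and 111.7, 117.3 and 113.3 CPM in wild type. Its groups did not overlap, with a log2 fold change of 0.12 ± 0.044 (SE), an interval of 0.023 to 0.21 and an adjusted p-value of 0.455. *Rpl18* stood at 33.1, 34.8 and 32.3 CPM in E861A and 37.2, 37.7 and 36.0 CPM in wild type. All E861A libraries lay below all wild-type libraries, with a log2 fold change of -0.14 ± 0.053 (SE), an interval of -0.26 to -0.030 and an adjusted p-value of 0.447. *Rpl18* overlaps *Sphk2* on the opposite strand, so its count is less certain. With the replicate block the adjusted p-values were 0.131 for *Rpl7* and 0.157 for *Rpl18*.

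**Figure D4:**
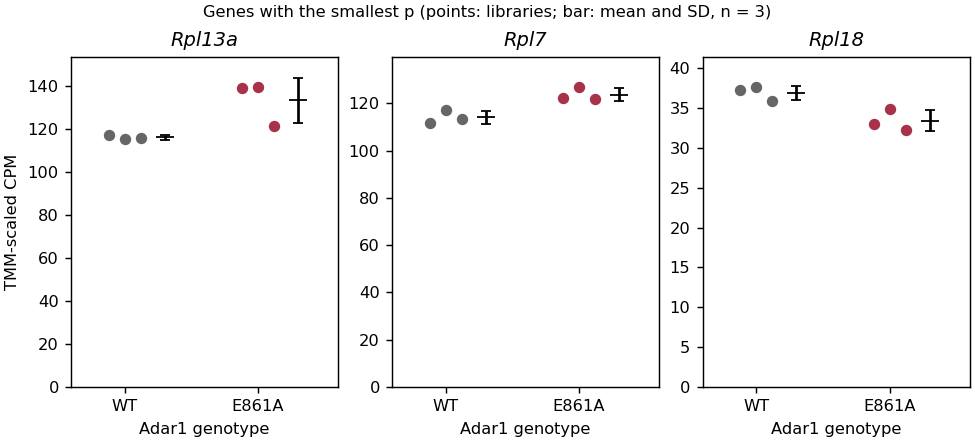
TMM-scaled CPM in each library (points) with the mean and SD of 3 libraries (bars) for the 3 genes with an unadjusted p under 0.05, with each vertical axis from 0. The genotypes are apart for *Rpl13a*, *Rpl7* and *Rpl18*.

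The remaining genes whose genotypes did not overlap were named after their values were seen. They were *Rps6*, *Rpl35*, *Rps12*, *Rps26* and *Rps7*, higher in E861A, and *Rps13*, *Rplp2* and *Rps16*, lower in E861A. Their log2 fold changes ran from -0.12 for *Rps13* to 0.13 for *Rpl35*, and none had an unadjusted p under 0.05. *Rps6* encodes the ribosomal protein that S6 kinases phosphorylate downstream of mTOR. It stood at 44.3, 49.1 and 44.1 CPM in E861A and 43.3, 43.6 and 41.3 CPM in wild type, with a log2 fold change of 0.10 ± 0.056 (SE) and an adjusted p-value of 0.613. The E861A libraries lay just above the wild-type libraries.

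Other large and small log2 fold changes belonged to genes with few counts or with overlapping groups. *Rps4l* stood at 7.51, 8.07 and 6.20 CPM in E861A and 6.83, 6.40 and 5.93 CPM in wild type, with a log2 fold change of 0.19 and an interval of -0.052 to 0.44. *Rps27l*, a paralogue of *Rps27* induced by p53, stood at 5.91, 6.62 and 7.07 CPM in E861A and 6.72, 7.26 and 6.80 CPM in wild type, with a log2 fold change of -0.086 and an interval of -0.31 to 0.13. The genotypes overlapped for both. *Rps4l* lies within *Tmtc1* on the opposite strand, and the strand setting of the counting is not known. *Rpl23a*, which lies at the exit of the ribosomal tunnel, had a log2 fold change of 0.11, *Rps3*, which lines the mRNA entry, one of -0.099, and *Rpl28* one of -0.099, and the groups overlapped for each.

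Most of the other genes with known particular roles overlapped between genotypes. In the stalk that recruits elongation factors, the log2 fold change was -0.011 for *Rplp0*, 0.040 for *Rplp1* and -0.077 for *Rplp2*. *Rplp2* did not overlap, at 61.6, 63.9 and 63.6 CPM in E861A and 64.2, 67.9 and 67.3 CPM in wild type, with an adjusted p-value of 0.665. *Rpl5* and *Rpl11*, which form a particle with 5S ribosomal RNA that binds MDM2, had log2 fold changes of 0.041 and 0.0085.

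*Rps19*, the gene most often mutated in Diamond-Blackfan anaemia, had a log2 fold change of 0.0072 with an interval of -0.10 to 0.12, and its groups overlapped. *Rps27a*, made as a fusion with ubiquitin, had one of 0.013. The X-linked genes *Rpl10*, *Rpl39* and *Rps4x* had log2 fold changes of 0.060, -0.016 and 0.031. *Rpl3*, of the peptidyl transferase region, had one of 0.046, and *Rpl38*, known for its role in the translation of Hox mRNAs, one of -0.0061. Among the most abundant per kilobase, the log2 fold change was 0.022 for *Rps27*, 0.0023 for *Rpl17*, -0.010 for *Rps15* and -0.0080 for *Rpl4*.

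A further 4 genes with symbols of this form ending in l were below the level filter and had no test. *Rpl3l*, a muscle paralogue of *Rpl3*, held 8, 6 and 6 counts in E861A and 10, 12 and 7 in wild type. *Rpl6l* held 5, 9 and 2 counts against 6, 12 and 11. *Rpl10l*, a testis paralogue, held 0 in each E861A library and 2, 0 and 0 in wild type, and *Rpl39l* held 3, 0 and 0 against 1, 1 and 2.

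The start sites of the ribosomal protein genes were compared by sequence, because the TOP motif is the feature that these genes share. RefSeq start sites (GRCm38.p6) were matched by symbol for 54 of the 75 genes. In the 15 bases before and the 15 bases from the annotated start on the gene's strand, an unbroken run of at least 8 C or T letters was present in 24 of the 54 (44.4%), against 11.9% of the 27025 genes in the table (3205). The share was 46.9% for the large subunit (15 of 32) and 40.9% for the small subunit (9 of 22). A match is a description of letters in a window, and annotated starts can differ from the starts used in brain. Runs that lie wholly before the annotated start, as in *Rpl4*, were counted too. The examples begin with the matched genes *Rpl13a*, *Rpl18*, *Rps6* and *Rplp2*, whose genotypes did not overlap, then 2 of the most abundant. *Rps13* and *Rps12* follow, whose genotypes also did not overlap and whose windows hold no run of 8 letters. The longest runs of *Rpl13a*, *Rps13* and *Rps12* reach the last base of the window, so they can be longer than shown. The longest C/T run is in capitals and base 16 is the annotated start.
Rpl13a: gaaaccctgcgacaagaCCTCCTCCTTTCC
Rpl18: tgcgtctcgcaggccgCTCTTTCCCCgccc
Rps6: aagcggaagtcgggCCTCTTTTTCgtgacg
Rplp2: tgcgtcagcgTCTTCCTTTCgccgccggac
Rpl4: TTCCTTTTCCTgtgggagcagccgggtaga
Rps27: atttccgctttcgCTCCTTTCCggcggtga
Rps13: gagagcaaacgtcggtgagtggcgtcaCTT
Rps12: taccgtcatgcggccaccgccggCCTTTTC

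In GRCm38.p6 these windows are chr7:45128731-45128760 on the minus strand for *Rpl13a*, chr7:45718056-45718085 on the plus strand for *Rpl18*, and chr4:86857353-86857382 on the minus strand for *Rps6*. They are chr7:141447636-141447665 on the plus strand for *Rplp2*, chr9:64173372-64173401 on the plus strand for *Rpl4*, and chr3:90213634-90213663 on the minus strand for *Rps27*. The last are chr7:116334176-116334205 for *Rps13* and chr10:23787195-23787224 for *Rps12*, both on the minus strand. The run was 13 letters in *Rpl13a* and 10 in *Rpl18*, which had the highest and the lowest log2 fold change of the 75. Whether the run bears on the level of these mRNAs was not tested. The median log2 fold change was 0.0038 for the 24 genes with a run in the window and 0.0011 for the 30 without.

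Other features of the genes went with equally small differences. The 28 genes that hold small nucleolar RNAs in their span moved by a median of -0.0042 on the log2 scale, against 0.013 for the 47 without. The 55 genes with a named pseudogene had a median of 0.0081, and the 20 without had one of -0.0094. The 185 named ribosomal protein pseudogenes held 7037 counts over the 6 libraries, 0.626% of the 1124200 counts of the 75 genes, and none passed the level filter. Reads that match a gene and a pseudogene equally are not counted by the aligner's gene counting, so levels can be too low to an unknown degree. Across the 75 genes, Spearman's rho of the log2 fold change was 0.086 with exon length, -0.084 with GC content and -0.014 with level, which describes genes read from the same 6 libraries. Over all tested genes the rho with GC content was -0.398.

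The other genes of the translation machinery had no call either. Medians were lower than those of the ribosomal protein genes for the mitochondrial ribosome, initiation and elongation factors, ribosome assembly and TOP regulators. Ribosome-related genes outside the symbol rule for the 75, at 0.0067, lay between the large and the small subunit. Host genes of small nucleolar RNAs, at 0.086, were higher. Of 75 tested genes of the mitochondrial ribosome, which translates the mitochondrial genome, 26 were higher and 49 lower in E861A, and the median log2 fold change was -0.033. Of 38 initiation factor genes 9 were higher and 29 lower, with a median of -0.041. Of 9 elongation factor genes 1 was higher and 8 lower, with a median of -0.054. *Eef1a1*, itself a TOP mRNA, was the 1 higher gene, at 0.043, and its neuronal paralogue *Eef1a2* had a log2 fold change of -0.11, both with overlapping groups.

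Of 34 genes for ribosome assembly 9 were higher and 25 lower, and the median log2 fold change was -0.036. Of 24 tested regulators of TOP mRNAs and S6 kinases 11 were higher and 13 lower, with a median of -0.014. *Larp1*, which encodes the TOP-binding protein, stood at 135.0, 134.5 and 122.8 CPM in E861A and 141.9, 137.6 and 142.6 CPM in wild type. *Mtor* stood at 132, 133 and 125 CPM in E861A and 137, 134 and 135 CPM in wild type. E861A lay below wild type in both without overlap, with adjusted p-values of 0.552 and 0.735. In all 5 of the 24 genes did not overlap (20.8%), 4 lower and 1 higher in E861A, and at an unadjusted p under 0.05 there was 1 gene in each direction. Over all tested genes 14.2% did not overlap, 6.66% lower and 7.51% higher, and 9.01% had an unadjusted p under 0.05. The share without overlap was 18.4% for the initiation factors, 17.3% for the mitochondrial ribosome and 17.1% for the respiratory chain. It was 14.7% for ribosome assembly and 0% for the elongation factors.

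Of 6 tested genes of the ribosome or its paralogues outside the symbol rule, 3 were higher and 3 lower, and the median log2 fold change was 0.0067. *Rack1*, a scaffold on the small subunit, stood at 67.7, 70.8 and 70.3 CPM in E861A and 67.1, 69.6 and 68.4 CPM in wild type. Of 5 tested host genes of small nucleolar RNAs 4 were higher and 1 lower, with a median of 0.086. Of 76 genes of the respiratory chain 13 were higher and 63 lower, with a median of -0.045. In the unpaired fit none of these lists held a called gene. With GC offsets and the replicate block together, *Atp5g3* of the respiratory chain, a subunit of ATP synthase, passed, with a log2 fold change of -0.20 and an adjusted p-value of 0.0231. No difference between lists was tested.

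Single libraries moved these medians. Leaving out each library in turn, the median ran from -0.086 (without E861A replicate 2) to -0.021 (without wild-type replicate 2) for the respiratory chain, and it was -0.022 without E861A replicate 1. In the same 2 settings it was -0.053 and -0.019 for the initiation factors, and -0.089 and -0.025 for the elongation factors. For the mitochondrial ribosome it was -0.020 without wild-type replicate 2. For the host genes of small nucleolar RNAs it ran from 0.030 (without E861A replicate 1) to 0.12 (without E861A replicate 2). For the regulators of TOP mRNAs its sign turned, from -0.032 without wild-type replicate 2 to 0.012 without wild-type replicate 1.

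**Figure D5:**
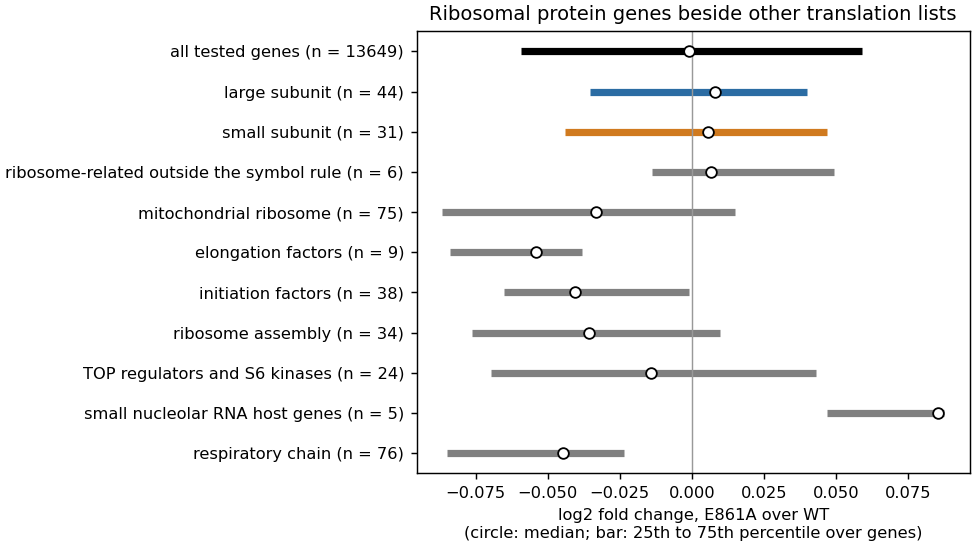
Median (circle) and 25th to 75th percentile over genes (bar) of the log2 fold change of E861A over wild type, for all tested genes, both subunits and the other lists, with the number of tested genes in brackets. The subunits sit at 0.0080 and 0.0054, beside -0.0010 for all tested genes, and the mitochondrial ribosome, the elongation and initiation factors and the respiratory chain sit between -0.054 and -0.033.

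In bulk tissue fewer cells of a type and less RNA per cell cannot be told apart. The neuron, astrocyte, oligodendrocyte and microglia marker lists held 6, 5, 5 and 5 genes, all tested, with median log2 fold changes of -0.044, 0.013, 0.0013 and -0.063 and no call. The 4 endothelial markers were all lower, with a median of -0.35 and summed levels of 64.4 to 86.2 CPM in E861A and 90.8 to 103 CPM in wild type. Of 5 choroid plexus markers 4 were lower, with a median of -0.23. The summed levels of these 5 were 209 to 325 CPM in E861A and 383 to 397 CPM in wild type. All 5 blood markers were lower, with a median of -0.47. The blood value rested on wild-type replicate 2, with 231 CPM in sum against 109 to 132 CPM in the other libraries, and without it the median was -0.043. Without E861A replicate 1 the median was -0.21 for endothelium and -0.10 for choroid plexus. In that setting the quasi-likelihood test called *Ttr* of the choroid plexus list, with a log2 fold change of -0.33 and an adjusted p-value of 0.0046. With all 6 libraries and the main level filter the unpaired quasi-likelihood test called no marker. With the filter of edgeR's filterByExpr it called *Flt1*, at an adjusted p-value of 0.0445. Without E861A replicate 2 it called *Flt1*, *Pecam1* and *Ttr*, at adjusted p-values of 0.0025, 0.0439 and 0.0362. Without wild-type replicate 2 it called *Flt1*, at 0.0186. With the replicate block *Ttr* of the choroid plexus list passed, at an adjusted p-value of 0.0241. *Flt1* of the endothelial list passed with DESeq2, at an adjusted p-value of 0.0022, and with the likelihood ratio test, at 0.0034. *Ttr* also passed with the likelihood ratio test, at an adjusted p-value of 0.0067. Without a level filter *Ttr*, *Flt1*, *Cldn5*, *Pecam1* and the hemoglobin genes of the blood list passed. All of these were lower in E861A. Pituitary hormone genes summed to 435 CPM in E861A replicate 1 and to at most 3.39 CPM elsewhere. Without that library the median log2 fold change of the 75 ribosomal protein genes was 0.0065, with 48 higher and 27 lower. The part of these cells in the ribosomal protein values was not tested.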

How the data were processed

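Per the submitters' processing notes reads were trimmed with Trimmomatic 0.36 and aligned to mm9 with STAR 2.5.2a, and genes were counted by its gene counting, whose strand column is not given in the sources used here. The authors deposited raw counts per gene, used here, and CPM, used to find the ribosomal protein genes. The authors' deposited fold changes and false discovery rates were not used. The test took genes that reached 2 CPM in all 3 libraries of one genotype or the other, with edgeR 4.0.16 (R 4.3.3), by TMM scaling, the quasi-likelihood test without covariates and Benjamini-Hochberg adjustment over all tested genes. Intervals are 95% t intervals from the fit. Positions and exon lengths are from GENCODE vM1. The fit was tested on simulated data. DESeq2 1.42.0 and limma 3.58.1 were alternatives.

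Over all tested genes same-numbered libraries of the 2 genotypes deviated together, with correlations of 0.221, 0.329 and 0.112. Mismatched pairs ran from -0.255 to 0.052 there. Deviations were taken from the mean of each genotype, so they cancel within a genotype. Positive matched values therefore push the mismatched values down, and part of this contrast is built in. Over the 75 genes the matched values were 0.192, 0.047 and 0.079 and the mismatched ones ran from -0.259 to 0.186. Those of replicates 2 and 3 thus lay inside the mismatched range. The replicate block assumes that the numbers pair the libraries, and this was taken from the same 6 libraries. The labels give no shared litter or day.

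Named genes were those with an unadjusted p under 0.05, the 5 highest and 5 lowest log2 fold changes, the 5 highest and 3 lowest levels per kilobase, paralogues ending in l, and genes of known role. The genes and lists were chosen with earlier results of these data known. One gene counted among the 75 is not reported by name here or in the plots. *Eftud1* and *Lhb* of the lists were not matched. Of the 75 genes 18 overlap another annotated gene, *Rpl13a*, *Rpl13* and *Rpl19* on the same strand, and their counts are less certain.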

Additional observations from a re-analysis of the deposited data

How the results depend on the processing

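The median log2 fold change of the ribosomal protein genes stayed between -0.024 and 0.021 under 19 alternatives, that of the large subunit between -0.014 and 0.027 and that of the small subunit between -0.033 and 0.030. The sign of each turned, and each moved by less than 1 SD of that median between libraries of a genotype (0.036, 0.035 and 0.040). The difference in summed level ran from 26.3 to 28.4 CPM over 3 alternatives. The count of ribosomal protein genes called was 1, *Rpl13a*, without a level filter, with the replicate block, with GC offsets, and with GC offsets and the block together (added after the data were seen), and 0 to 1 when leaving out each replicate in turn. It was 0 in the remaining alternatives. The count of all genes called was 69. It was 139 with the likelihood ratio test, 110 with edgeR's filterByExpr, 376 without a filter and 158 with the replicate block, and 42 to 113 when leaving out each replicate in turn. The replicate block changed no other call among the ribosomal protein genes. The cause of these moves was not tested. With GC offsets the small subunit had 21 genes higher and 10 lower, and the large subunit 22 and 22. Depth limits *Rps4l* and *Rps27l* most, at 164 to 288 counts per library.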

Other observations

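Chromosome 7 held 14 of the 75 ribosomal protein genes, 4 higher and 10 lower in E861A, and their log2 fold changes had a median of -0.020. The genotypes did not overlap at 5 of them, *Rpl13a*, *Rpl18*, *Rps13*, *Rplp2* and *Rps16*, where 16.3% of the 985 tested genes of that chromosome did not overlap. This chromosome was singled out after the values were seen, and with GC offsets the median of the 14 genes was -0.0061.

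The spread between libraries of a genotype, as the SD of log2 (CPM + 0.5), was larger in E861A than in wild type for 50 of the 75 ribosomal protein genes (66.7%) and for 58.9% of all tested genes. The median SD over the 75 was 0.062 in E861A and 0.045 in wild type, and over all tested genes 0.079 and 0.065. Genes are not independent replicates, and this difference was not tested.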
